A study of Mus musculus with 6 samples.

Results

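The guanylate-binding proteins (GBPs) and the immunity-related GTPases (IRGs) were examined in livers of C57BL/6 mice given FGF19, a gut hormone of humans whose mouse counterpart is FGF15. The 10 genes were chosen by name from the count files, as Gbp2, Gbp3, Gbp6 and Gbp7 of the GBP family and Irgm1, Irgm2, Igtp, Iigp1, Ifi47 and Tgtp1 of the IRG family. All 10 were listed among the 23284 genes of those files. Liver RNA of 3 mice treated with vehicle was compared with that of 3 mice treated with FGF19 at 1 mg/kg. All 6 mice were wild-type C57BL/6 animals, 8 weeks old, fasted overnight and kept fasting during the 6 h of treatment. The series addresses how FGF19 changes liver gene expression.

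GBPs and IRGs are GTPases that interferons, above all interferon-γ, induce through transcription factors of the STAT and IRF families. GBPs are large proteins that assemble on the vacuoles and membranes of intracellular microbes and help to trigger inflammasomes. IRGs are smaller proteins that act on the same vacuoles. The effectors among them (Iigp1, Tgtp1, Ifi47) attack the vacuole membrane, and the regulators (Irgm1, Irgm2, Igtp) keep the effectors inactive on the cell's own membranes. In liver they are known mainly from infection, and hepatocytes as well as immune cells can express them.

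The stretches before the gene starts are shown first, because interferon-stimulated factors act through short motifs there. The ISRE core (GAAANNGAAA) is the sequence bound by IRF proteins and the GAS motif (TTCNNNGAA) that bound by STAT dimers. Both strands were searched in RefSeq promoters of 300 bases (250 before to 50 after the start, assembly GRCm38.p6), which were placed on the mm9 genome by exact match. This placed 9 promoters of 8 genes, with 2 for Gbp3, and Gbp6 and Iigp1 had no entry. An ISRE core was found in 7 of the 9 promoters against 3.44% of all 32851 promoters, and a GAS motif in 4 of the 9 against 8.30%. The second promoter of Gbp3, with its start at 142223320, held neither and is not printed. The 120 bases before the start are printed 5′ to 3′ on the strand of the gene, with ISRE core and GAS letters in capitals, for the genes that held either motif.
Gbp2, chr3:142283507-142283626, plus strand: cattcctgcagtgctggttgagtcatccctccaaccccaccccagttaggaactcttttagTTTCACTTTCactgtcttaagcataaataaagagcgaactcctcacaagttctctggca
Gbp3, chr3:142222888-142223007, plus strand: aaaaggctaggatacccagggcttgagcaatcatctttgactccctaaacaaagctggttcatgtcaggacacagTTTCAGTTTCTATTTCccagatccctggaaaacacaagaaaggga
Gbp7, chr3:142193180-142193299, plus strand: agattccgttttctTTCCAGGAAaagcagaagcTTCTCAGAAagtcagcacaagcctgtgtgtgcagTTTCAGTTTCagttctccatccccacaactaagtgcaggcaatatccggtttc
Irgm1, chr11:48684923-48685042, minus strand: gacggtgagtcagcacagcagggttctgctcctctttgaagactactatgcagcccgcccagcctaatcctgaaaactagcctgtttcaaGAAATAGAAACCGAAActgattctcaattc
Irgm2, chr11:58028359-58028478, plus strand: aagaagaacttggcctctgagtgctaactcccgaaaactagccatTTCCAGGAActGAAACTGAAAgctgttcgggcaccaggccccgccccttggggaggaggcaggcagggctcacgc
Igtp, chr11:58012938-58013057, plus strand: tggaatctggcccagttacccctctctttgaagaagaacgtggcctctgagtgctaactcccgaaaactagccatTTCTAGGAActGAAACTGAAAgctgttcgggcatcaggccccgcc
Tgtp1, chr11:48805749-48805868, minus strand: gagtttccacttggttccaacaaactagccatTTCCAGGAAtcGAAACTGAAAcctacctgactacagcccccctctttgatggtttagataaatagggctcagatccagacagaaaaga

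In Irgm2, Igtp and Tgtp1 the GAS letters stood 2 bases before the ISRE core, and Gbp7 held 2 GAS motifs as well as its ISRE core. In Gbp3 and in Irgm1 the capitals are 2 overlapping ISRE cores. The stretches of Igtp and Irgm2 were alike, with 87 of 90 bases identical when shifted by 30 bases. Gbp2 held an ISRE core and no GAS motif, and an AP-1 motif (TGANTCA, found in 7.81% of all promoters) from 102 to 96 bases before its start. Irgm1 held the same AP-1 motif from 115 to 109 bases before its start. The RefSeq promoter of Ifi47 held none of these motifs, nor the kappaB motif (in 8.46% of all promoters), which Gbp2 held just after its start. Its start at 48890089 lies before the first exon of Ifi47 in the count files, which begins at 48900557. The sequence just before that exon was not searched, so motifs there are not known. A match of letters is a description of the sequence and does not show that a factor binds there.

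**Figure D1:**
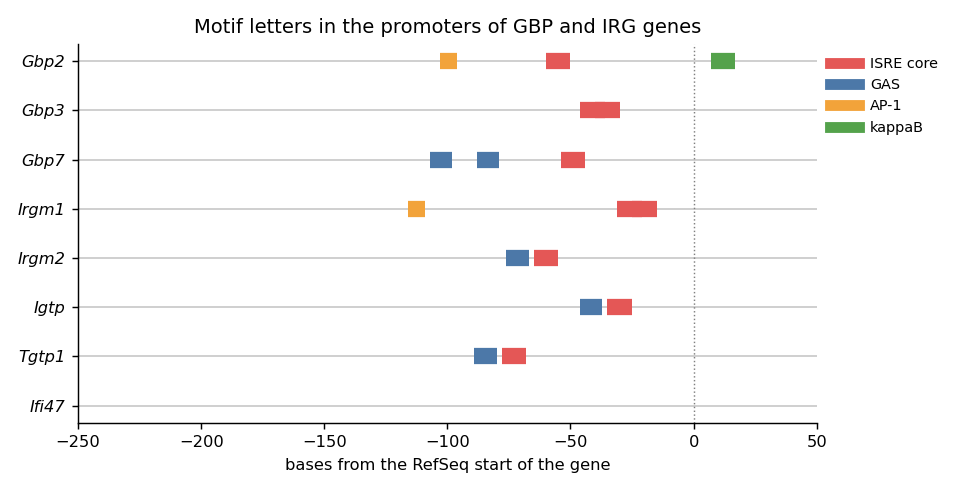
Positions of 4 motifs in the 300-base RefSeq promoters of 8 GBP and IRG genes, with the distance in bases from the gene start on the x axis and one line per gene. Coloured blocks are matches on either strand, and 7 of the 8 genes hold an ISRE core, all within 100 bases before the start.

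The libraries held from 18994654 to 22920056 counted reads. Levels are given in CPM, counts scaled to a common library size, after TMM scaling in edgeR, whose factors ran from 0.964 to 1.03. Where no read was counted, a level of 0.131 to 0.158 CPM (3 counts) stays possible from counting error alone. Of the 23284 genes, 12559 passed edgeR's filter on low counts and entered its quasi-likelihood test. All p-values were adjusted over these genes by the method of Benjamini and Hochberg, and SE stands for the standard error of a log2 fold change. A call is an adjusted p under 0.05. The check on treatment is Cyp7a1, the bile acid synthesis gene that FGF19 represses, which fell from 268 ± 44.1 CPM to 11.4 ± 1.75 CPM (SD, n = 3 mice a group throughout). Alb, the hepatocyte gene of serum albumin, was at 69274 ± 1105 CPM with vehicle and 66314 ± 2728 CPM with FGF19, so the tissue had the marker of its label.

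After FGF19 treatment 6 of the 10 genes rose (Gbp2, Gbp3, Gbp6, Gbp7, Iigp1 and Ifi47) and none fell. The count was 3 without vehicle replicate 3, 8 without FGF19 replicate 3, and 4 or 5 without any of the other libraries. Among all genes tested 4.56% were called higher and 2.84% lower, or 7.41% in either direction. Igtp, Irgm1 and Irgm2 did not pass, and Tgtp1 could not be tested. The 4 GBP genes had log2 fold changes between 1.76 and 3.92, and the 5 IRG genes tested between -0.06 and 1.73. The median over the 9 genes tested was 1.73, beside -0.00076 over all genes tested. In 7 of the 10 genes every FGF19 library lay above every vehicle library, a pattern seen in 14.5% of all genes tested, and in none was every one below, as in 13.8% of all genes. At the study's threshold of an unadjusted p under 0.01 the same test gave 6 genes higher and none lower, beside 6.2% and 4.98% of all genes. At an adjusted p under 0.01 it gave 4 genes higher and none lower, beside 1.82% and 0.637%. Each of the 9 genes had at least 59 counts in every library, so none passed the filter through the FGF19 group alone. In bulk tissue, more cells of a type and more RNA per cell cannot be told apart.

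**Figure D2:**
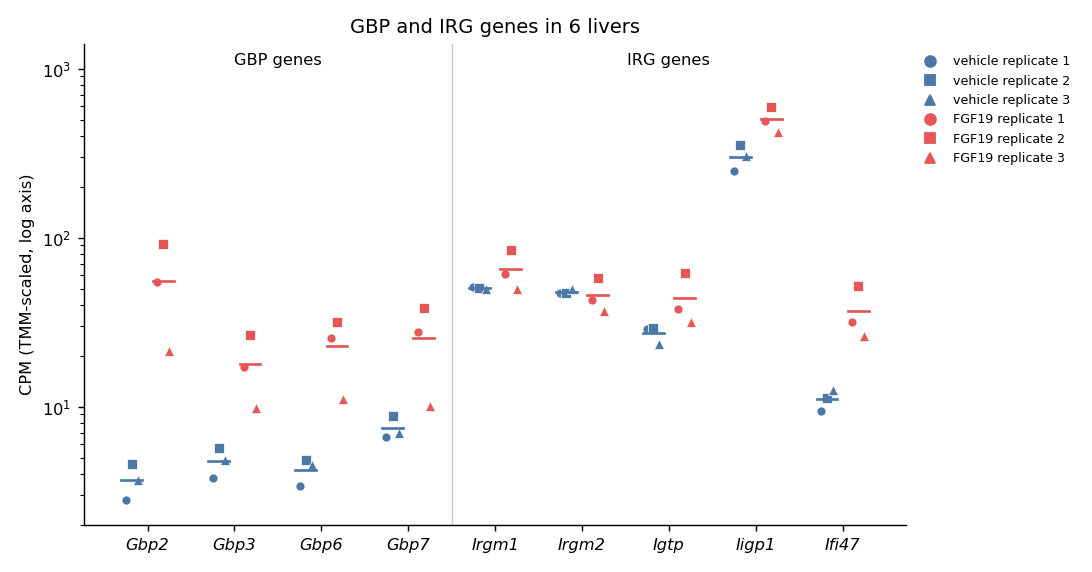
CPM on a log axis of the 9 tested GBP and IRG genes in each of the 6 livers, with blue for vehicle, red for FGF19, marker shapes for replicates and horizontal lines for group means (n = 3). The groups are apart for the 4 GBP genes, Igtp, Iigp1 and Ifi47 and overlap for Irgm1 and Irgm2.

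Gbp2, a GBP that reaches pathogen vacuoles early, lies at chr3:142283627-142300972 on the plus strand of mm9. It was at 2.81, 4.61 and 3.67 CPM in vehicle replicates 1, 2 and 3 and at 54.7, 91.4 and 21.4 CPM in FGF19 replicates 1, 2 and 3. The lowest FGF19-treated mouse was thus well above the highest vehicle-treated mouse. The rise was 15.1-fold (log2 fold change 3.92, SE 0.484, adjusted p = 0.00169 in edgeR), and it ranked 10 by log2 fold change among the 12559 genes tested. Without any one library in turn its log2 fold change was between 3.37 and 4.32, and each of the 6 fits kept the call.

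Gbp6, at chr5:105699721-105722718 on the minus strand, was at 3.38, 4.82 and 4.52 CPM in vehicle replicates 1, 2 and 3 and at 25.6, 31.7 and 11.0 CPM in FGF19 replicates 1, 2 and 3. Its groups did not overlap, and its rise was 5.38-fold (log2 fold change 2.43, SE 0.349, adjusted p = 0.00376 in edgeR). Its level is uncertain, since 75.4% of the 100-base windows on Gbp6 exons occur again elsewhere in the genome. The same holds for 66.8% of those of Gbp10, a near-identical family gene beside it. Reads that align to several places were left out of the counts.

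Gbp3, at chr3:142223016-142236176 on the plus strand, was at 3.81, 5.72 and 4.86 CPM with vehicle and at 17.3, 26.5 and 9.77 CPM with FGF19, in the order of the replicates. The 3.73-fold rise (log2 fold change 1.90, SE 0.326, adjusted p = 0.00908 in edgeR) showed no overlap between the groups. Without vehicle replicate 3 the adjusted p was 0.0502, at a log2 fold change of 1.91.

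Gbp7, at chr3:142193302-142213047 on the plus strand, is a GBP linked to antimicrobial oxidant production. Its levels were 6.62, 8.85 and 7.0 CPM with vehicle and 27.8, 38.2 and 10.1 CPM with FGF19. FGF19 replicate 3 was only just above the highest vehicle-treated mouse. The rise was 3.39-fold (log2 fold change 1.76, SE 0.393, adjusted p = 0.0277 in edgeR, and 0.0852 with limma-voom). This call held in 1 of the 6 fits that left out a library, the one without FGF19 replicate 3 (adjusted p = 0.000258), and the other 5 gave an adjusted p between 0.0544 and 0.116, the highest without vehicle replicate 3.

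Ifi47, an IRG effector also called Irgd, had the largest fold change of the 5 IRG genes. It lies at chr11:48900557-48910473 on the plus strand, and 5.38% of its exon bases overlap an exon of Olfr56. It was at 9.38, 11.3 and 12.5 CPM in vehicle replicates 1, 2 and 3 and at 31.8, 52.1 and 26.4 CPM in FGF19 replicates 1, 2 and 3. Every FGF19-treated mouse was above every vehicle-treated mouse, by 3.33-fold in the fit (log2 fold change 1.73, SE 0.237, adjusted p = 0.00290 in edgeR), and all 6 fits without a library kept the call.

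Iigp1, an IRG effector also called Irga6, lies at chr18:60535683-60552283 on the plus strand and was the most abundant of the 9 genes with counts. Vehicle replicates 1, 2 and 3 were at 247.0, 354 and 305 CPM and FGF19 replicates 1, 2 and 3 at 493, 594 and 425 CPM. The groups did not overlap and the 1.67-fold rise was small beside those of the GBP genes (log2 fold change 0.74, SE 0.155, adjusted p = 0.0210 in edgeR). The call was lost without vehicle replicate 1 (adjusted p = 0.0639), vehicle replicate 3 (0.0893), FGF19 replicate 1 (0.0620) or FGF19 replicate 2 (0.0740).

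None of the 3 regulators passed the test. Igtp, also called Irgm3, at chr11:58013058-58021094 on the plus strand, was at 29, 29.2 and 23.6 CPM with vehicle and at 37.8, 61.9 and 31.6 CPM with FGF19. Its groups did not overlap, and with a log2 fold change of 0.68 (SE 0.220, interval from 0.19 to 1.18) its adjusted p of 0.0968 in edgeR did not pass. It passed with DESeq2 (adjusted p = 0.0214) and in edgeR without FGF19 replicate 3 (0.0207). Without FGF19 replicate 2 its log2 fold change was 0.36 (adjusted p = 0.227), and the other 4 fits without a library gave an adjusted p of up to 0.290.

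Irgm1, at chr11:48678751-48684848 on the minus strand, was at 51.4, 50.5 and 49.7 CPM with vehicle, a range of 1.04-fold, and at 61.0, 84.5 and 49.7 CPM with FGF19. FGF19 replicate 3 lay within the vehicle range and the others above it. The log2 fold change was 0.36 (SE 0.165, interval from -0.01 to 0.74, adjusted p = 0.227 in edgeR). Without FGF19 replicate 3 it was 0.53 (adjusted p = 0.0279), and without FGF19 replicate 2 it was 0.14 (adjusted p = 0.611).

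Irgm2, at chr11:58028479-58036285 on the plus strand, was at 46.8, 47.1 and 49.6 CPM in vehicle replicates 1, 2 and 3. FGF19 replicates 1, 2 and 3 were at 43.0, 57.9 and 37.0 CPM, on either side of the vehicle range. The log2 fold change of -0.06 (SE 0.148, adjusted p = 0.860 in edgeR) had a 95% interval from -0.39 to 0.27, so a change of the size seen for the 4 GBP genes or Ifi47 lies outside it. Igtp and Irgm2, whose promoter stretches are nearly identical, were compared within libraries. The ratio of Igtp to Irgm2 reads was 0.619, 0.620 and 0.476 with vehicle and 0.881, 1.07 and 0.855 with FGF19, with no overlap. No test was made of this pair, which was chosen after the values were seen.

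Tgtp1, an IRG effector also called Irgb6, at chr11:48798831-48805748 on the minus strand, had 0 counts in all 6 libraries. This value says nothing about its expression. All 2809 of its exon bases also belong to Tgtp2 in the gene models of the files, whose Tgtp2 spans both copies, and reads on more than 1 gene were not counted. Tgtp2, of whose 5633 exon bases 49.9% are shared in this way, kept counts on the rest. It was at 0.524, 0.794 and 1.14 CPM with vehicle and 2.42, 4.23 and 1.58 CPM with FGF19. Every FGF19-treated mouse was thus above every vehicle-treated mouse (log2 fold change 1.74, SE 0.416, adjusted p = 0.0362 in edgeR). This call held without FGF19 replicate 3 (adjusted p = 0.010) and was lost in the other 5 fits that left out a library, with an adjusted p between 0.0743 and 0.122, and with limma-voom (0.0643). Since 80.0% of the windows on Tgtp2 exons are repeated in the genome, its level is a low estimate of unknown size.

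**Figure D3:**
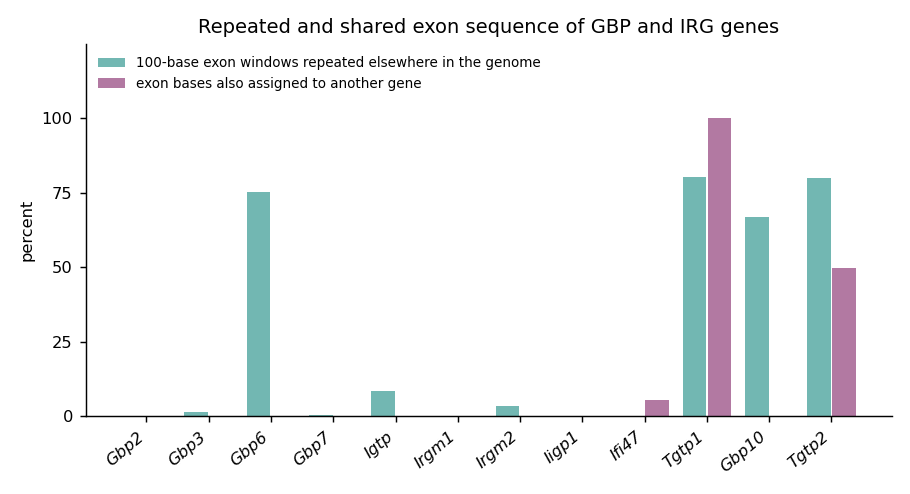
Percent of 100-base exon windows that occur again in the genome (green) and percent of exon bases that also belong to another gene of the count files (purple), for the 10 listed genes, Gbp10 and Tgtp2. Gbp6, Gbp10, Tgtp1 and Tgtp2 have 66.8% to 80.3% of windows repeated, and Tgtp1 shares 100% of its exon bases.

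Levels can be compared between genes only per length of exon. In vehicle-treated mice Iigp1 was at 96.7 ± 17.2 CPM per kb (SD, n = 3), followed by Irgm1 at 22.7 ± 0.398 CPM per kb. Irgm2 (13.6 ± 0.431 CPM per kb) and Igtp (13.5 ± 1.56 CPM per kb) did not differ beyond their spread, and Ifi47 stood at 6.61 ± 0.940 CPM per kb. The GBP genes were lowest, with Gbp3 at 1.82 ± 0.362, Gbp2 at 1.51 ± 0.366, Gbp7 at 1.35 ± 0.214 and Gbp6 at 0.982 ± 0.176 CPM per kb, and neighbours in that order overlapped within 1 SD. In FGF19-treated mice Gbp2 was at 22.7 ± 14.3 CPM per kb. It thus stood among Irgm1 (29.2 ± 7.98), Ifi47 (22.0 ± 8.11) and Igtp (21.6 ± 7.89 CPM per kb), none of which differed from it beyond the spread. Iigp1 remained highest at 161 ± 27.2 CPM per kb. The other GBP genes were between 4.57 and 6.77 CPM per kb, below Irgm2 at 13.1 ± 3.06 CPM per kb. Summed over the genes tested, the 4 GBP genes went from 5.65 to 39.3 CPM per kb and the 5 IRG genes from 153 to 247 CPM per kb. The values of Gbp6 are low estimates because of its repeated exons.

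The FGF19-treated mice differed among themselves in a shared order. In all 9 genes tested FGF19 replicate 2 was highest and FGF19 replicate 3 lowest, an order found in 20.6% of all genes tested. Against the vehicle mean, Gbp2 was 14.8-fold, 24.7-fold and 5.78-fold in FGF19 replicates 1, 2 and 3, and Ifi47 was 2.88-fold, 4.71-fold and 2.39-fold. The coefficient of variation over the FGF19-treated mice was 62.7% for Gbp2, 55.9% for Gbp7 and 16.9% for Iigp1, where the median of the 11657 genes tested with a mean of at least 1 CPM was 10.9%. Over the vehicle-treated mice it was between 1.75% for Irgm1 and 24.3% for Gbp2. FGF19 replicate 3 had the highest total count and the lowest TMM factor (0.964), and their part in the order was not tested.

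**Figure D4:**
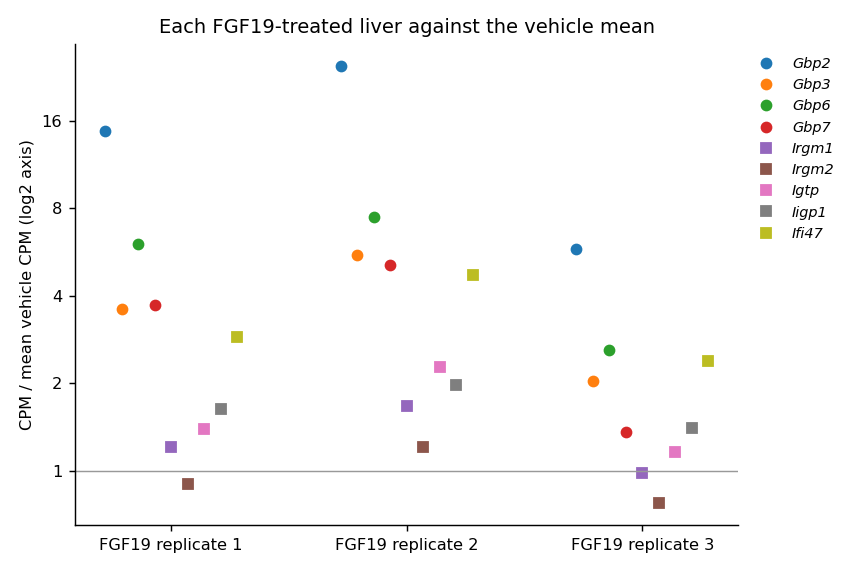
CPM in each FGF19-treated liver divided by the mean of the 3 vehicle-treated livers, on a log2 axis, with circles for GBP genes and squares for IRG genes. FGF19 replicate 2 is highest and FGF19 replicate 3 lowest for each of the 9 genes, and Gbp2 is furthest from 1 in all 3 livers.

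As a measure of likeness, the log2 CPM of each gene over the 6 libraries was correlated with the mean standardized profile of the 9 genes. Pearson's r with this profile, to which each gene itself contributes, was between 0.936 and 0.981 for 8 of the genes and 0.394 for Irgm2. The 5 other genes with the highest r and a mean of at least 1 CPM were Gbp5 (0.995), Gtf3c4 (0.992), Cnnm4 (0.992), Derl2 (0.992) and Ppap2a (0.990). Gbp5 is a GBP that acts in inflammasome assembly, Gtf3c4 a subunit of a factor for RNA polymerase III, and Derl2 a protein of degradation from the endoplasmic reticulum. None of the 5 passed in edgeR, with log2 fold changes of 1.04, 0.32, 0.31, 0.15 and 0.11 and adjusted p from 0.0932 to 0.587. Gbp5 passed without FGF19 replicate 3 (log2 fold change 1.29, adjusted p = 0.0229), and without FGF19 replicate 2 its value was 0.67 (adjusted p = 0.316). With 6 libraries in 2 groups, these values mostly describe the group difference and the order of the FGF19-treated mice.

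The rest of both families was taken from lists of related genes. Of 7 other GBP genes tested, 3 were called higher and none lower. They were Gbp10 (1.77 ± 0.624 CPM with vehicle and 11.4 ± 6.72 CPM with FGF19, log2 fold change 2.69, adjusted p = 0.0145 in edgeR), Gbp4 (log2 fold change 1.76, adjusted p = 0.00904) and Gbp9 (1.76, adjusted p = 0.0153). The calls of Gbp9 and Gbp10 were lost without vehicle replicate 1 (adjusted p = 0.0615 and 0.0619) and without vehicle replicate 3 (0.0752 and 0.0756), and that of Gbp10 also with limma-voom (0.0826). Of the GBP genes that did not pass, Gbp1 had a log2 fold change of -0.19 (adjusted p = 0.874) and Gbp11 of 0.11 (adjusted p = 0.910). Of 7 other IRG genes tested 2 were called higher, Tgtp2 and Gm12250, the gene of Irgb10. Gm12250 went from 0.993 ± 0.326 CPM to 3.18 ± 1.90 CPM (log2 fold change 1.68, adjusted p = 0.0490 in edgeR). It held its call without FGF19 replicate 3 (adjusted p = 0.0266) and lost it in the other 5 such fits (from 0.0501 to 0.150), with no TMM scaling (0.0647) and with limma-voom (0.0852). Without FGF19 replicate 2 its log2 fold change was 1.08. Gm4951, the most abundant of the other IRG genes, had a log2 fold change of -0.09 (adjusted p = 0.787). The Mx proteins are dynamin-like GTPases of the type I interferon response, and neither Mx1 (log2 fold change -0.03, adjusted p = 0.970) nor Mx2 (-0.01, adjusted p = 0.988) passed. The sign of both values turned in some alternatives.

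**Figure D5:**
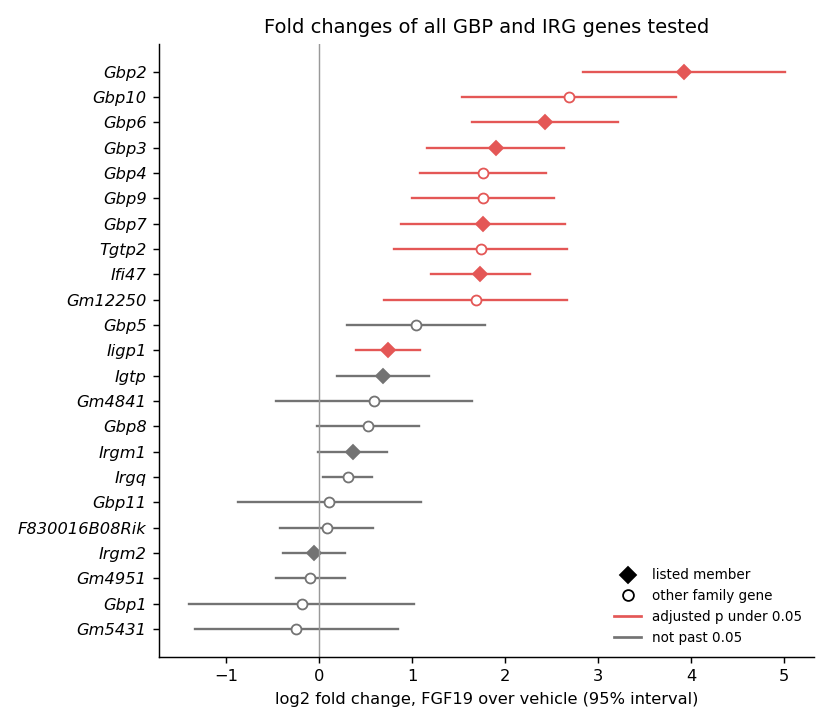
Log2 fold change (FGF19 over vehicle, x axis) with its 95% interval from edgeR for the 23 GBP and IRG genes tested, in order of size, with diamonds for listed genes, circles for other family genes and red for an adjusted p under 0.05. The highest values are those of GBP genes, from Gbp2 at 3.92 to Gbp7 at 1.76.

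Upstream of these GTPases, the interferon ligands were near the limit of detection. Ifng, the gene of interferon-γ, had 0 counts in 5 libraries and 2 counts in FGF19 replicate 2, and 6 of the 13 ligand and inducer genes listed had 0 counts in all libraries. Of the 3 tested, Ebi3, a subunit of interleukin-27, was higher (0.671 ± 0.409 CPM and 2.08 ± 0.305 CPM, log2 fold change 1.61, adjusted p = 0.0300 in edgeR). With 24, 8 and 9 counts in the vehicle libraries it passed the filter only through the FGF19 group, so its call is no support. Its call was lost without vehicle replicate 2 or 3 or FGF19 replicate 1 or 2, with an adjusted p of up to 0.13. Il18, an inducer of interferon-γ, had a log2 fold change of -0.25 (adjusted p = 0.545, and -0.54 with adjusted p = 0.0434 without FGF19 replicate 3). Without FGF19 replicate 1 or 2 it was -0.11 or -0.12.

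Among the receptor and JAK-STAT genes, Stat3, which interleukin-6 activates, rose (log2 fold change 0.49, adjusted p = 0.0172 in edgeR) and lost its call without vehicle replicate 1 or 3 or FGF19 replicate 1 or 2 (adjusted p up to 0.0797). The receptor genes Ifngr1 (0.23, adjusted p = 0.379) and Ifngr2 (0.19, adjusted p = 0.318) and the kinase genes Jak1 (-0.01, adjusted p = 0.963) and Jak2 (-0.11, adjusted p = 0.700) did not pass.

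Among 10 IRF and related regulators Irf7, which amplifies type I interferon responses, was the one called. It went from 35.3 ± 4.3 CPM to 59.9 ± 1.40 CPM (log2 fold change 0.76, adjusted p = 0.00254 in edgeR). Irf1, the factor most tied to GBP induction, was at 19.6, 36.3 and 32.1 CPM with vehicle and 22.6, 27.4 and 32.4 CPM with FGF19, with overlapping groups (log2 fold change -0.09, interval from -0.57 to 0.38, adjusted p = 0.838). None of 6 tested inhibitors of interferon signalling passed, among them Ptpn6 (0.11, adjusted p = 0.484). Socs1, the feedback inhibitor of JAK kinases, had 3 to 9 counts with vehicle and 10 to 16 counts with FGF19 and was not tested.

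Of 25 other interferon-γ targets tested, 11 were higher and none lower. Cxcl9, a T-cell chemokine, was at 4.10, 7.10 and 6.20 CPM with vehicle and at 231, 342 and 119 CPM with FGF19. Its replicates kept the order of the GBP genes, and its log2 fold change was 5.32 (SE 0.393, adjusted p = 0.000126 in edgeR). Ubd, a ubiquitin-like modifier, had a log2 fold change of 2.67 (adjusted p = 0.00220), but with 7, 16 and 13 counts in the vehicle libraries it passed the filter only through the FGF19 group. The immunoproteasome genes Psmb10 (1.48, adjusted p = 0.000335) and Psmb8 (1.25, adjusted p = 0.00108) rose too. So did Xaf1, a pro-apoptotic gene (1.08, adjusted p = 0.0122, and 0.0657 without vehicle replicate 3).

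Of 26 type I interferon targets tested, 8 were higher and none lower. The largest changes were those of Isg15, a ubiquitin-like modifier (log2 fold change 2.34, adjusted p = 0.000507 in edgeR), Zbp1, a nucleic acid sensor (2.17, adjusted p = 0.000228), and Herc6, an ISG15 ligase (1.85, adjusted p = 0.00258). Ifi44 (1.41, adjusted p = 0.0152) kept its call without vehicle replicate 2 or FGF19 replicate 3 and lost it without any of the other 4 libraries (adjusted p up to 0.0743). Ifit2 (0.99, adjusted p = 0.0378) kept it only without FGF19 replicate 3, with an adjusted p of up to 0.137 in the other such fits, 0.0515 with no TMM scaling and 0.0643 with limma-voom.

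GBP and IRG proteins work with the ubiquitin-like conjugation system of autophagy. Of 17 genes tested on that list none was higher and 2 were lower. Gabarapl1 fell from 438 ± 46.2 CPM to 314 ± 33.5 CPM (log2 fold change -0.48, adjusted p = 0.0323 in edgeR) and Map1lc3a from 70.8 ± 2.62 CPM to 53.0 ± 4.26 CPM (-0.42, adjusted p = 0.0233). Both calls were lost without any of the 3 vehicle replicates or FGF19 replicate 2 (adjusted p up to 0.142 and 0.111). Of 11 inflammasome genes 2 were higher. They were Gsdmd, the pore-forming protein of pyroptosis (29.1 ± 2.35 CPM and 48.8 ± 3.73 CPM, log2 fold change 0.75, adjusted p = 0.00259), and Il18bp, which binds interleukin-18 (0.62, adjusted p = 0.0267). The call of Il18bp was lost without vehicle replicate 1 or 3 or FGF19 replicate 1 or 2 (adjusted p up to 0.113).

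Markers of other liver and blood cells were set beside these results. Of 8 Kupffer cell and macrophage markers tested, Cd68 (log2 fold change 0.66, adjusted p = 0.00932) and Marco (2.29, adjusted p = 0.00105) were higher in edgeR, while the defining Kupffer cell gene Clec4f had a log2 fold change of -0.29 (adjusted p = 0.233). The summed level of that list was between 189 and 236 CPM with vehicle and between 196 and 230 CPM with FGF19. Of 5 T and NK cell markers tested none passed, and their summed level over 10 genes was between 2.86 and 5.61 CPM with vehicle and between 5.43 and 6.34 CPM with FGF19. The neutrophil list (6 genes, 3 tested) summed to between 2.29 and 3.72 CPM with vehicle and between 5.97 and 9.09 CPM with FGF19, with S100a9 called (log2 fold change 2.16, adjusted p = 0.0292). S100a9 passed the filter only through the FGF19 group, with 5, 4 and 21 counts in the vehicle libraries. The monocyte list (5 genes, 3 tested) summed to between 4.43 and 6.62 CPM with vehicle and between 8.01 and 11.7 CPM with FGF19, with no gene called. Of 7 endothelial markers Cdh5 was higher (0.43, adjusted p = 0.0275), with sums from 266 to 288 CPM and from 275 to 291 CPM. The calls of S100a9 and Cdh5 were lost in 4 and 5 of the 6 fits without a library (adjusted p up to 0.0939 and 0.123). S100a9 kept its call without vehicle replicate 3, where its log2 fold change was 3.28, or FGF19 replicate 3, and Cdh5 without FGF19 replicate 3. No gene of the hepatocyte, B cell, dendritic cell, stellate cell or cholangiocyte lists was called. The part of these cells in the changes of the GBP and IRG genes was not tested.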

How the data were processed

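Liver RNA of 6 mice was sequenced as paired-end reads. Per the file headers, the authors used featureCounts 1.5.2 with exons of an mm9 annotation, and the deposited values are raw counts per gene. Strand was not used, mates were counted separately, and reads aligned to several places or lying on more than 1 gene were left out. The submitters' processing notes name STAR 2.5.3a for alignment, and the methods another version. The authors' deposited table of fold changes, mean log2 CPM and p-values for FGF19 against vehicle was not used.

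The tests were run in edgeR 4.0.16 under R 4.3.3 (filterByExpr, TMM and the quasi-likelihood test, no covariates). Intervals are 95% intervals from that test. Alternatives were DESeq2 1.42.0, limma-voom (limma 3.58.1), no TMM scaling, no filter, at least 1 CPM in every library, each library left out in turn, a block for the replicate number and a threshold of 0.01. The code was tested on simulated data. The members and gene lists were chosen with earlier results of these data known. Of each list, up to 5 called genes with a mean of at least 1 CPM were named by size of change, the most abundant gene where fewer than 2 passed, and a set of named signalling genes, and other genes named were chosen after their values were seen. CPM per kb is CPM divided by exon length. Exon windows of 100 bases were matched exactly, on both strands, to the mm9 (NCBIM37) genome. No protein sequences were used. One gene of the signalling lists is not reported here.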

Additional observations from a re-analysis of the deposited data

How the results depend on the processing

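The number of the 10 genes called higher was 6 in the reported fit and between 5 and 7 with DESeq2, limma-voom, other scaling or filters and the replicate block, and 4 at an adjusted p under 0.01. Leaving out 1 library gave from 3 genes (vehicle replicate 3 left out) to 8 genes (FGF19 replicate 3 left out), and 4, 5, 4 and 4 genes for vehicle replicates 1 and 2 and FGF19 replicates 1 and 2. Without 1 library the median log2 fold change was between 1.35 and 1.93, that of Gbp3 between 1.5 and 2.20, of Gbp7 between 1.35 and 2.15, of Igtp between 0.36 and 0.88, of Irgm1 between 0.14 and 0.53, of Irgm2 between -0.25 and 0.082, and of Iigp1 between 0.61 and 0.87. Gbp7 had 1.57 with limma-voom (adjusted p = 0.0852), and Igtp 0.68 with DESeq2 (adjusted p = 0.0214). The values of Irf1 (-0.32 to 0.088), Jak1 (-0.11 to 0.11) and Jak2 (-0.21 to 0.029) changed sign without a library. Mx1 turned to 0.105 with limma-voom and 0.040 with the replicate block, and Mx2 to 0.088 and 0.052. Without 1 library Mx1 was between -0.31 and 0.52 and Mx2 between -0.28 and 0.35. The causes were not tested.

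Over all genes, 573 were higher and 357 lower. With the replicate block these were 370 and 164, at an adjusted p under 0.01 they were 228 and 80, and without 1 library between 236 and 1016 and between 91 and 927. Of the 124 other listed pathway genes tested, 30 were higher (13 to 37 without 1 library). Another 2 were lower (4 with DESeq2, 0 with the replicate block, 0 to 7 without 1 library). Among all genes tested 4.56% were called higher and 2.84% lower. The 30 include Ebi3 and Ubd, which passed the filter only through the FGF19 group. Same-numbered libraries correlated at -0.03, -0.18 and -0.18, and in none was the own number the closest. With 3 libraries a group these values cannot show whether the mice were paired, and the labels do not state it. With the replicate block the adjusted p was 0.0549 for Tgtp2, 0.0595 for Stat3, 0.0583 for Ifit2, 0.0706 for Gabarapl1, 0.0674 for Map1lc3a and 0.0878 for Cdh5. Low counts limit S100a9, Ubd, Ebi3, Gm12250 and the ligands.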
